A study of Mus musculus with 67 samples.

Results

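The mTOR complexes and their lysosomal activators were followed here through 10 genes: Mtor, Rptor, Rictor, Mlst8, Lamtor1, Lamtor2, Lamtor3, Lamtor4, Lamtor5 and Rheb. They were taken by name as the kinase, the defining subunits of its 2 complexes, the 5 subunits of Ragulator and the activating GTPase, not by their values. All 10 were found among 24546 genes in the second experiment of the series, with 59 RNA-seq libraries, and among 24421 genes in its pilot experiment, with 8 libraries, so that all 67 samples were used. The study had itself named Mtor, Rictor, Lamtor3 and Lamtor4 from the pilot libraries, and values of these genes there are therefore not independent evidence.

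mTOR is a serine/threonine kinase that joins nutrient and growth factor signals to protein synthesis, and in T cells it is known for its part in activation, in effector differentiation and in the function of regulatory T cells. Raptor (Rptor) defines complex 1, Rictor defines complex 2 and mLST8 belongs to both. Ragulator, built from Lamtor1 to Lamtor5, anchors the Rag GTPases to the lysosome, where they bring complex 1 to Rheb, the small GTPase that switches the kinase on.

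The question of the study was how T cells of the mouse hypothalamus respond to a high-calorie environment. In the second experiment, activated conventional T cells (activated Tconv, sorted as live CD4+CD25-Foxp3GFP-CD44hiCD62Llow cells) and regulatory T cells (Tregs, the gate of the study being CD4+CD25+Foxp3GFP+) came from the hypothalamus or from the rest of the brain. The mice were female Balb/c or male C57Bl/6J animals on a high-fat high-sugar (HFHS) diet, started at 6 weeks of age, or on a standard diet (SD), and each library held the cells of 1 pool of mice. Strain and sex cannot be told apart in this design. The hypothalamus gave 16 libraries of activated Tconv and 16 of Tregs, and the rest of the brain gave 13 and 14, with 2 to 4 libraries in each of the 16 groups of cell type, tissue, strain and diet. The pilot had 1 library per condition, all from the hypothalamus of females: CD4+CD25-CD44low+int T cells, labelled as naive, and CD4+CD25+Foxp3GFP+ Tregs from Foxp3GFP Balb/c mice after 16 weeks of HFHS diet or SD (9 mice pooled), and 2 CD4+ T-cell sorts, CD25- and CD25++, of leptin-deficient ob/ob and wild-type (WT) Bl6 mice (7 mice pooled).

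Library totals were 13196697 to 20538319 estimated counts in hypothalamic activated Tconv, 11340062 to 28187003 in those of the rest of the brain, 8938478 to 24985601 in Tregs of the rest of the brain and 1724154 to 38482282 in hypothalamic Tregs. Genes with more than 3 counts numbered 9387 to 14195 per activated Tconv library, 5960 to 10281 per Treg library of the rest of the brain and 2370 to 10476 per hypothalamic Treg library. Foxp3, which defines Tregs, was at 0 to 13.8 counts-per-million (CPM) in activated Tconv and at 241 to 767 CPM in Tregs of the rest of the brain. In 4 of the 16 hypothalamic Treg libraries it was at 0.0977, 0.429, 1.21 and 3.48 CPM, against their label. Of these, the Balb/c SD pool 32_36 held 3704 CPM of the microglial gene C1qa, and the C57Bl/6J SD pool 11_15 held 428 CPM of C1qa and 37.9 CPM of the T-cell gene Cd3e. Comparisons of cell type, tissue, strain and diet that use hypothalamic Tregs are therefore also given without these 4 libraries, and the interactions that use them were fitted with them. The hypothalamic C57Bl/6J SD Treg pool 67_71 held 128 CPM of C1qa and 105 CPM of the neuronal gene Snap25, and pool 62_66 held 62.6 CPM of Snap25. Both stayed in the fits without the 4 libraries. In activated Tconv of the rest of the brain, the 3 Balb/c HFHS libraries stood apart with Cd3e at 982, 1187 and 1230 CPM, beside 1936 to 2355 CPM in the remaining 10. They are all the Balb/c HFHS libraries of these cells, so the fit on HFHS diet alone and the interaction of strain and diet cannot be given without them. Comparisons of strain, tissue, cell type and diet and the interaction of tissue and strain are given with and without them, and the other interactions only with them. Without these 3 libraries the diet comparison of these cells rests on C57Bl/6J alone. In bulk libraries, fewer cells of a type and less RNA per cell cannot be told apart.

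The promoters of 9 of the 10 genes, 300 bases from 250 before to 50 after the annotated start, were taken from RefSeq (GRCm38.p6). The 5 shown here belong to the genes that differed between strains in activated Tconv of the rest of the brain. Capitals mark the E-box letters CACGTG, searched on both strands (the letters read the same on each).

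Lamtor2 (chr3:88552902-88553201, reverse strand): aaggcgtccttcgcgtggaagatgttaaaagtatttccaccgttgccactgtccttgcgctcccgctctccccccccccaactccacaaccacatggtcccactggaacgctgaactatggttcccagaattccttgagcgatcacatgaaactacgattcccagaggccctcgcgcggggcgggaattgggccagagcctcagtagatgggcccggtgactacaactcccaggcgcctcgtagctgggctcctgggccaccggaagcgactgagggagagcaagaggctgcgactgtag

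Lamtor4 (chr5:138255232-138255531, forward strand): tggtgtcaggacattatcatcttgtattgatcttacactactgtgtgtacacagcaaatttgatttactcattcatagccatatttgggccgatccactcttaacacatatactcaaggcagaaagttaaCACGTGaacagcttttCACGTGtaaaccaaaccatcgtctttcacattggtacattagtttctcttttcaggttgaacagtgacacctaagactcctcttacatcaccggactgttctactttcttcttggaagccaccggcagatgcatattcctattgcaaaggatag

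Lamtor5 (chr3:107278608-107278907, forward strand): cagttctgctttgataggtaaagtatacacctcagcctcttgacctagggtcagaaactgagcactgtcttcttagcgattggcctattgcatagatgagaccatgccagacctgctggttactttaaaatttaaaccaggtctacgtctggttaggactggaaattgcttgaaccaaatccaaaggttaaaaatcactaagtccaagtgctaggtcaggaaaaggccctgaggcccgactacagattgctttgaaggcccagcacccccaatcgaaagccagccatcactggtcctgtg

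Rheb (chr5:24842312-24842611, reverse strand): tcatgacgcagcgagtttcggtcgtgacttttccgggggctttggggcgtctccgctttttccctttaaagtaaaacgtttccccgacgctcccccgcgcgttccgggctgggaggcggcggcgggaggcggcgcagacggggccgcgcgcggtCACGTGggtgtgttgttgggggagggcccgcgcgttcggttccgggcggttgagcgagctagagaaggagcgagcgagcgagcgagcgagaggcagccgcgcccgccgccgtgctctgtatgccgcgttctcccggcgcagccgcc

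Rictor (chr15:6708131-6708430, forward strand): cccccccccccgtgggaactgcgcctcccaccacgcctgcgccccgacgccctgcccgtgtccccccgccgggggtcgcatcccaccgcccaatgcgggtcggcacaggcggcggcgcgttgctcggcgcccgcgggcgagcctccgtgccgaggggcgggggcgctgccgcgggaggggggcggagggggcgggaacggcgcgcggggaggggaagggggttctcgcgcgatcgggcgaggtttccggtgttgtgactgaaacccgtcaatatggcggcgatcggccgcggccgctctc

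Among the 9 promoters, CACGTG was present in 3, with 1 site in Lamtor1, 2 in Lamtor4 and 1 in Rheb, against 7.2% of the 32851 RefSeq promoters of this length. The letters CCAAT were found on either strand in 6 of 9 (37.4% of all), the GC box GGGCGG in 4 of 9 (35.7%), the ETS core CCGGAAG in 3 of 9 (8.9%) and TATAAA in 0 of 9 (13.6%). Of the promoters printed, Lamtor5 held only CCAAT among these motifs, while Rictor held 4 GC boxes. A match of letters is a description of the window and not a measured binding site.

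Measured per transcript length, Ragulator transcripts were far more abundant than those of the kinase complexes. In hypothalamic activated Tconv the mean level was 459 ± 87.2 TPM (transcripts-per-million; SD, n = 16) for Lamtor2 and 344 ± 58.4 for Lamtor5. Lamtor4 followed at 171 ± 41.3 TPM, Lamtor1 at 166 ± 33.6 TPM, Rheb at 158 ± 34.0 TPM and Lamtor3 at 85.0 ± 17.9 TPM. Rictor stood at 22.0 ± 7.43 TPM, above the other complex subunits, Mlst8 at 4.54 ± 3.08, Rptor at 2.53 ± 1.90 and Mtor at 1.83 ± 1.78 TPM. Neighbours whose mean ± SD ranges overlapped were Lamtor2 with Lamtor5, then Lamtor4, Lamtor1 and Rheb, and at the bottom Mlst8, Rptor and Mtor.

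In activated Tconv of the rest of the brain (n = 13), the 3 groups of levels held the same genes: Lamtor2 at 486 ± 64.2 and Lamtor5 at 392 ± 81.9 TPM at the top, and Mlst8 at 3.37 ± 2.14, Mtor at 1.89 ± 1.49 and Rptor at 1.54 ± 0.914 TPM at the bottom. Tregs of the rest of the brain (n = 14) also had Lamtor2 highest, at 532 ± 139 TPM, with Lamtor5 at 404 ± 116 and Rictor at 20.1 ± 9.80 TPM, while Mtor was at 2.68 ± 3.26, Mlst8 at 6.62 ± 8.27 and Rptor at 1.61 ± 2.85 TPM. In hypothalamic Tregs (n = 16) the spread was wide for all 10 genes, and narrowest relative to the mean for Lamtor2, at 492 ± 334 TPM, and Rheb, at 198 ± 137 TPM. The SD exceeded the mean for Lamtor3, at 69.9 ± 103, Mlst8, at 0.871 ± 2.57, Mtor, at 0.351 ± 0.925, and Rptor, at 0.145 ± 0.543 TPM. Mtor, Rptor and Rictor have the longest transcripts of the 10, with read-weighted lengths of 8595, 7002 and 9313 bases, and Lamtor2 the shortest, 571 bases.

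The 10 genes lie on 7 chromosomes (GRCm38.p6). The complex genes were annotated at chr4:148448582-148557685 (Mtor), chr11:119602905-119899591 (Rptor), chr15:6708349-6800401 (Rictor) and chr17:24473550-24479114 (Mlst8). The Ragulator genes were at chr7:101905837-101911903 (Lamtor1), chr3:88549819-88552951 (Lamtor2), chr3:137918555-137928762 (Lamtor3), chr5:138255482-138259395 (Lamtor4) and chr3:107278858-107284082 (Lamtor5), and Rheb was at chr5:24802823-24842361. Reads of Lamtor3 may be shared with its pseudogene Lamtor3-ps, and reads of Rptor with the antisense gene Rptoros, so that both values are uncertain to that extent.

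Detection of the low genes differed between Tregs and activated Tconv. In activated Tconv of the rest of the brain all 10 genes were above 3 counts in each of the 13 libraries, and in hypothalamic activated Tconv at most 1 of the 10 was at or under 3 counts in a library. In Tregs of the rest of the brain the median was 1 gene at or under 3 counts (0 to 4), and in hypothalamic Tregs it was 4 (1 to 8). In hypothalamic Tregs Mlst8 and Rptor were at or under 3 counts in 13 of 16 libraries and Mtor in 12 of 16, whereas Lamtor2 was so in 1 and Rheb in 2. These libraries also had fewer genes above 3 counts of any kind, and the part of that in the missing members was not tested.

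**Figure D1:**
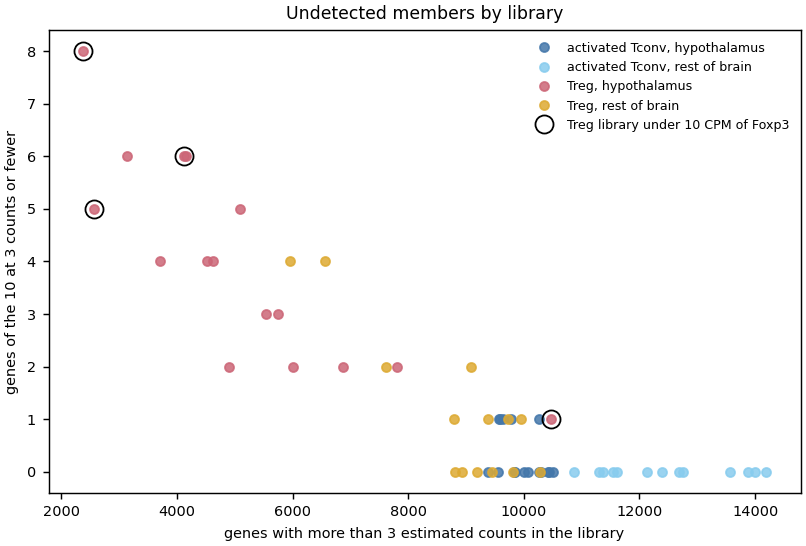
Number of the 10 genes at or under 3 counts in a library, against the number of all genes above 3 counts in that library. Libraries with few genes, mainly hypothalamic Tregs, miss up to 8 of the 10, and the 4 circled Treg libraries have under 10 CPM of Foxp3.

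Tregs and activated Tconv of the hypothalamus were compared with diet and strain in the fit. Rptor, the complex 1 scaffold, had 13.3 CPM in 1 hypothalamic Treg library, a Balb/c HFHS pool, and at most 5 counts in the other 15. In hypothalamic activated Tconv it ranged from 0 over a median of 13.7 to 29.6 CPM (n = 16), and all but that 1 Treg library lay at the bottom of this range. The fit gave a log2 fold change of -5.24 (SE 1.55, edgeR adjusted p = 0.0247), and Rptor was the 1 gene called of the 10, where 7.73% of all genes tested were called and 7.19% were called lower. It was called in all 32 fits that left out 1 library, with log2 fold changes from -8.19, without the Balb/c HFHS Treg pool 16_20 that held its counts, to -5.02. Since it was at or under 3 counts in 13 of the 16 Treg libraries, the size of this fold change depends on the prior count of the fit, and it passed the count filter through activated Tconv, so the call adds little to the values above. Without the 4 libraries of low Foxp3 its log2 fold change was -4.50 (edgeR adjusted p = 0.0484), within Balb/c alone it was -5.70 (adjusted p = 0.137), and with an offset for transcript length the log2 fold change was -1.77 (adjusted p = 0.381).

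Mlst8 had counts of 26, 124 and 455 in 3 hypothalamic Treg libraries and 0 in the other 13, for a log2 fold change of -5.65 (SE 2.05, edgeR adjusted p = 0.0924). Mtor had 295 counts in 1 library, 128 in another, which was the low-Foxp3 C57Bl/6J SD pool 11_15, and at most 11 in the other 14, for a log2 fold change of -2.35 (SE 1.38, edgeR adjusted p = 0.448). Without the libraries of low Foxp3 the Mtor value was -5.72 (adjusted p = 0.0866) and that of Mlst8 -5.12 (adjusted p = 0.125). With the pool as a replicate block, edgeR called Mtor (-7.31), Rptor (-8.59) and Mlst8 (-8.49), all lower, and 5638 of 11685 genes. The same paired pools without the block gave -2.36 for Mtor (edgeR adjusted p = 0.431), -5.08 for Rptor (adjusted p = 0.0356) and -6.20 for Mlst8 (adjusted p = 0.0817). All 3 genes were at or under 3 counts in most hypothalamic Treg libraries, so the sizes of their folds depend on the prior count of the fit. The median over the 10 genes was -0.61, beside -0.60 over all genes tested, and the other 7 genes had adjusted p-values from 0.838 up. These 7 values depended on the setting: with the offset for transcript length edgeR called 5 members, all higher in Tregs, among them Rictor (2.38), Lamtor1 (2.09) and Lamtor5 (1.88), while the calls over all genes went from 61 higher and 811 lower to 4163 and 628. In limma-voom 6 members and 7330 of 11285 genes were called. Of the 6 Treg markers, 5 were called higher in these Tregs, as were 2 of the 4 microglial markers tested.

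Between Tregs and activated Tconv of the rest of the brain, edgeR called 0 of the 10 genes, where 15% of all genes tested were called. None of the 10 had an unadjusted p under 0.05 there, DESeq2 called 0 of them and 2467 of the 13961 genes, and limma-voom 1 and 3490. Without the 3 libraries low in Cd3e edgeR also called 0 (8.27% of all genes). The log2 fold changes ran from -2.08 (Rptor, SE 1.45, edgeR adjusted p = 0.420) to 0.51 (Mlst8, SE 1.25, adjusted p = 0.868). Within Balb/c alone, where 18.5% of all genes were called, 5 genes were lower in Tregs, with log2 fold changes of -1.13 for Lamtor4, -1.02 for Lamtor3, -0.92 for Rheb, -0.91 for Lamtor2 and -0.86 for Lamtor5. Of the 6 Balb/c libraries of activated Tconv in that fit 3 were those low in Cd3e, and without them Balb/c alone had 0 of the 10 called (3.13% of all genes), with -0.96 for Lamtor4 (edgeR adjusted p = 0.288) and -0.35 for Lamtor2 (adjusted p = 0.570). With the offset for transcript length over both strains 3 members were called, all higher in Tregs (Rictor 1.25, Lamtor1 0.61 and Lamtor2 0.63), and 2180 higher and 982 lower of all genes. The difference between Tregs and activated Tconv was tested against tissue, where 13.0% of all genes were called and 0 of the 10 (Rptor -3.99, SE 1.59, edgeR adjusted p = 0.0942).

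Activated Tconv of the rest of the brain held the clearest difference among the 10 genes, between the strains. Ragulator subunits Lamtor2, Lamtor4 and Lamtor5 and the GTPase Rheb were higher in Balb/c females, and Rictor, which defines complex 2, was higher in C57Bl/6J males. Of the 10, 4 were called higher and 1 lower in Balb/c by edgeR, where 23.5% of all genes tested were called, 12.1% higher and 11.3% lower.

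Lamtor2, which pairs with Lamtor3 inside Ragulator, had 104, 137 and 154 CPM in C57Bl/6J (lowest, median and highest, n = 7) and 192, 217 and 252 CPM in Balb/c (n = 6). No C57Bl/6J library reached the lowest Balb/c library, and the log2 fold change of Balb/c over C57Bl/6J was 1.003 (SE 0.17, edgeR adjusted p = 0.000299). Lamtor5 had 134, 204 and 211 CPM in C57Bl/6J and 278, 323 and 459 CPM in Balb/c, again without overlap, with a log2 fold change of 1.13 (SE 0.19, edgeR adjusted p = 0.000331). Lamtor4, the partner of Lamtor5, had 72.6, 102 and 117 CPM in C57Bl/6J and 128, 141 and 183 CPM in Balb/c. Its groups came close without overlapping, and the log2 fold change was 0.86 (SE 0.19, edgeR adjusted p = 0.00282).

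Rheb had 144, 166 and 193 CPM in C57Bl/6J and 216, 287 and 342 CPM in Balb/c. All 6 Balb/c libraries lay above all 7 C57Bl/6J libraries, with a log2 fold change of 1.01 (SE 0.16, edgeR adjusted p = 0.000224). Rictor went the other way, with 104, 173 and 248 CPM in C57Bl/6J and 48.4, 75.8 and 103 CPM in Balb/c. The highest Balb/c library lay just under the lowest C57Bl/6J library, and the log2 fold change was -1.01 (SE 0.22, edgeR adjusted p = 0.00215). These 5 genes were called in each of the 13 fits that left out 1 library. Without the 3 Balb/c HFHS libraries low in Cd3e, where 7.09% of all genes were called, the log2 fold changes were 0.63 for Lamtor2 (edgeR adjusted p = 0.0456), 0.65 for Lamtor5 (adjusted p = 0.0479), 0.68 for Rheb (adjusted p = 0.0355) and -1.07 for Rictor (adjusted p = 0.0488), and Lamtor4 was not called (0.36, adjusted p = 0.277).

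The other 5 genes were not called. Lamtor1, the lipid-anchored subunit, had a log2 fold change of 0.22 (SE 0.16, edgeR adjusted p = 0.360) and Lamtor3 of 0.26 (SE 0.23, adjusted p = 0.460). Mtor was at 0.05 (SE 0.58, adjusted p = 0.968) and Rptor at -0.10 (SE 0.56, adjusted p = 0.928), and with these errors changes of about 2-fold in either direction were not resolved. Mlst8, at -1.01 (SE 0.65, adjusted p = 0.296), had a value as large as Rictor with a larger error.

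**Figure D2:**
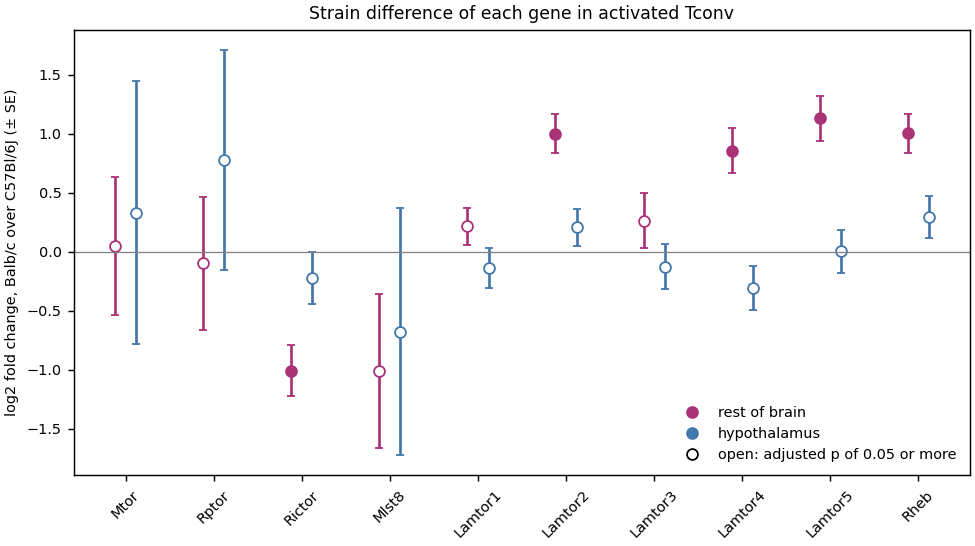
Log2 fold change of Balb/c over C57Bl/6J in activated Tconv for each of the 10 genes, with SE from edgeR, in the hypothalamus (16 libraries) and the remaining brain (13 libraries). Filled points have an adjusted p under 0.05. The remaining brain has 5 filled points (Lamtor2, Lamtor4, Lamtor5 and Rheb higher, Rictor lower) and the hypothalamus none.

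The size of these differences depended on how transcript length and library composition were handled. The genes higher in Balb/c have read-weighted lengths of 571 to 1521 bases and Rictor one of 9313 bases. Among all genes tested, the median log2 fold change was 0.64 for transcripts under 1500 bases, -0.34 for 1500 to 4000 bases and 0.07 over 4000 bases. With an offset for transcript length fitted to each library, Lamtor5 (0.47, edgeR adjusted p = 0.0201), Rheb (0.99, adjusted p = 0.000404) and Rictor (-1.54, adjusted p = 0.000948) were called, and Lamtor2 (-0.028, adjusted p = 0.893) and Lamtor4 (0.19) were not.

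On the scale of log2(TPM + 1), where the median of all genes was -0.47, Lamtor2 (0.33), Lamtor5 (0.47) and Rheb (0.34) were called higher by limma and Rictor (-1.53), Mlst8 (-1.12) and Lamtor1 (-0.42) lower. Relative to that median the values were 0.80 for Lamtor2, 0.94 for Lamtor5, 0.80 for Rheb, 0.65 for Lamtor4 and -1.06 for Rictor. In TPM, Lamtor2 was at 435 ± 32.8 in C57Bl/6J and 546 ± 27.2 in Balb/c, Lamtor5 at 332 ± 37.9 and 461 ± 59.3, and Rheb at 151 ± 16.3 and 191 ± 21.1 (SD, n = 7 and 6). Rictor was at 24.0 ± 7.07 TPM in C57Bl/6J and 7.60 ± 2.76 TPM in Balb/c, and Lamtor4, at 177 ± 22.2 and 200 ± 20.5 TPM, had ranges of mean ± SD that overlapped. Scaled to library totals in place of TMM, the 5 calls remained in edgeR, with 0.73 for Lamtor2, 0.59 for Lamtor4, 0.86 for Lamtor5, 0.73 for Rheb and -1.28 for Rictor, while the median of all genes shifted from -0.03 to -0.30. Over all genes, TMM gave 1493 higher and 1394 lower calls in Balb/c, library totals 1001 and 2070, and TPM 603 and 3831. Rictor, Rheb and Lamtor5 kept their direction and their call with the length offset, in TPM and with library totals.

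**Figure D3:**
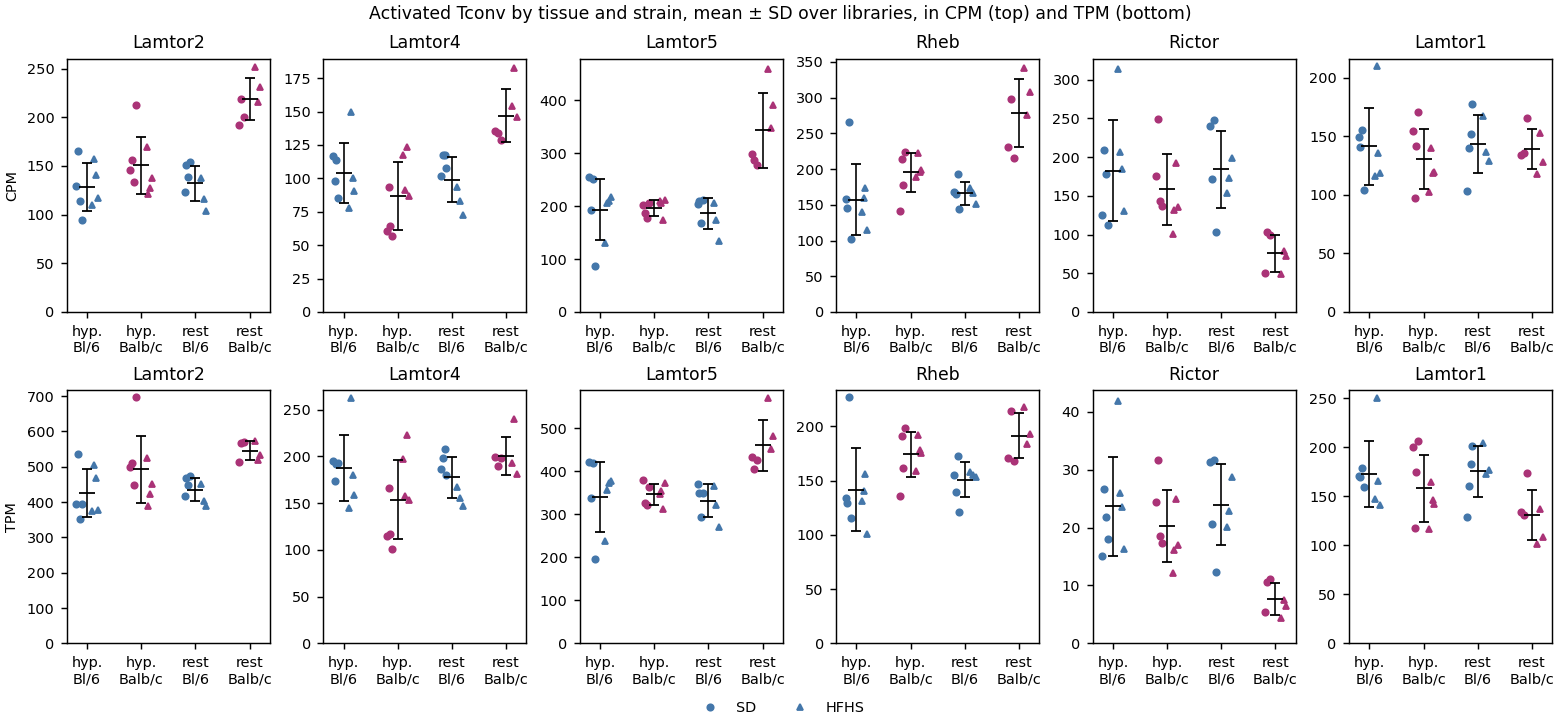
CPM (top) and TPM (bottom) of Lamtor2, Lamtor4, Lamtor5, Rheb, Rictor and Lamtor1 in each activated Tconv library by tissue and strain, with mean ± SD, circles for SD diet and triangles for HFHS diet. In the rest of the brain the strains separate in CPM for all but Lamtor1. In TPM the gap between the means, as a ratio, narrows for Lamtor2, Lamtor4, Lamtor5 and Rheb and widens for Rictor.

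Marker genes of other cells also differed in this comparison. The summed CD8 markers were at 276 to 479 CPM in Balb/c and 1.94 to 736 CPM in C57Bl/6J, and the summed monocyte and macrophage markers at 418 to 636 CPM in Balb/c and 930 to 1583 CPM in C57Bl/6J. The single genes of that sum did not go 1 way. Of the 3 monocyte and macrophage markers tested, 1 was called higher and 1 lower in Balb/c, with a median log2 fold change of 0.64. Of the 2 neuronal markers tested, 1 was called higher in Balb/c, and of the 4 oligodendrocyte markers 1 was called higher and 1 lower. Of the 7 microglial markers tested, 2 were called higher in Balb/c. Their summed level was 68.9 to 114 CPM in C57Bl/6J and 85.4 to 124 CPM in Balb/c, save for 1 SD library at 781 CPM. Of the 6 T-cell markers tested, Cd3d (0.58) and Cd3g (0.71) were higher and Cd4 (-1.02) and Lck (-0.92) lower in Balb/c. The part of these cells in the differences of the 10 genes was not tested.

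Within each diet the strain difference kept its direction for the 5 genes. Under SD alone, where 7.15% of all genes were called, Lamtor2 (0.63, edgeR adjusted p = 0.0399), Lamtor5 (0.65, adjusted p = 0.0241) and Rheb (0.68, adjusted p = 0.0450) were called, and Lamtor4 (0.36, adjusted p = 0.243) and Rictor (-1.07, adjusted p = 0.0819) were not. This fit holds the same Balb/c libraries as the one without the low-Cd3e libraries and does not add to it. Under HFHS diet alone the Balb/c arm was only the 3 libraries low in Cd3e. There 20.8% of all genes were called and all 5 of these, with log2 fold changes of 1.45 for Lamtor2, 1.44 for Lamtor4, 1.70 for Lamtor5, 1.41 for Rheb and -0.90 for Rictor. The interaction of strain and diet called 0 of the 10 genes, where 0.610% of all genes were called. The lowest adjusted p-values in it were those of Lamtor4 (1.05, SE 0.26, edgeR adjusted p = 0.0652) and Lamtor5 (1.03, SE 0.27, adjusted p = 0.0744), and the Balb/c HFHS arm of this test was again only the 3 libraries low in Cd3e.

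In the other cells the strains were not told apart by these genes. Hypothalamic activated Tconv had 0 of 10 genes called, with 2.10% of all genes called and a lowest adjusted p among the 10 of 0.706. Rheb had a log2 fold change of 0.30 (SE 0.18), Lamtor2 of 0.21 (SE 0.16), Lamtor5 of 0.0031 (SE 0.18) and Lamtor4 of -0.31 (SE 0.19) there. Hypothalamic Tregs had 0 of 7 called (0.0389% of all genes) and Tregs of the rest of the brain 0 of 10 (0.299%). None of the members tested in these 3 comparisons had an unadjusted p under 0.05, and DESeq2 and limma-voom called 0 of them, where they called 544, 250 and 300 and 302, 13 and 123 of all genes. Without the 4 libraries of low Foxp3, 0 of 9 genes were called between strains in hypothalamic Tregs, the lowest edgeR adjusted p being that of Mlst8 (-8.78, adjusted p = 0.575). In Tregs of the rest of the brain Mtor ranged from 0 over 1.34 to 46.99 CPM in C57Bl/6J (n = 8) and from 7.31 over 26.6 to 64.2 CPM in Balb/c (n = 6), with a log2 fold change of 3.76 (SE 2.30, edgeR adjusted p = 0.920).

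The strain difference of activated Tconv was then compared between tissues, a test added after the data were seen. The interaction called 3 of the 10 genes, all higher, where 10.4% of all genes were called and 5.58% higher. The strain difference was larger in the rest of the brain for Lamtor5 by 1.12 (SE 0.27, edgeR adjusted p = 0.00655), for Lamtor4 by 1.07 (SE 0.27, adjusted p = 0.00789) and for Lamtor2 by 0.77 (SE 0.22, adjusted p = 0.0228) on the log2 scale. For Rheb it was 0.70 (adjusted p = 0.0666) and for Rictor -0.82 (adjusted p = 0.103). On log2(TPM + 1) the values of Lamtor5 (0.40), Lamtor4 (0.48) and Lamtor2 (0.13) were not called by limma, and that of Rictor (-1.34, adjusted p = 0.0113) was. Scaled to library totals, Lamtor5 (0.85, edgeR adjusted p = 0.0195), Lamtor4 (0.82, adjusted p = 0.0289) and Rictor (-1.07, adjusted p = 0.0296) were called and Lamtor2 (0.51, adjusted p = 0.0953) was not. Without the 3 Balb/c HFHS libraries low in Cd3e 0 of the 10 were called (1.23% of all genes), with 0.91 for Lamtor4 (edgeR adjusted p = 0.136), 0.76 for Lamtor5 (adjusted p = 0.183) and 0.54 for Lamtor2 (adjusted p = 0.293).

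Hypothalamus and rest of the brain differed in activated Tconv by smaller amounts, and these calls were lost under several settings given after the values. Lamtor2 ranged from 94.4 over 135 to 212 CPM in the hypothalamus (n = 16) and from 104 over 154 to 252 CPM in the rest of the brain (n = 13), with a log2 fold change of -0.39 (SE 0.13, edgeR adjusted p = 0.0381). Lamtor5 ranged from 87.5 over 205 to 255 CPM and from 134 over 211 to 459 CPM, with a log2 fold change of -0.48 (SE 0.17, edgeR adjusted p = 0.0486). Rheb ranged from 102 over 175 to 266 CPM and from 144 over 193 to 342 CPM, with a log2 fold change of -0.39 (SE 0.14, edgeR adjusted p = 0.0484). The ranges of the tissues overlapped widely for each of these 3 genes, which were the 3 called of 10, all lower in the hypothalamus, where 16.9% of all genes were called and 11.2% lower. Lamtor4 (-0.46, SE 0.17, edgeR adjusted p = 0.0514), Lamtor3 (-0.36, SE 0.15, adjusted p = 0.1001) and Rictor (0.41, SE 0.18, adjusted p = 0.119) were not called.

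Within Balb/c alone, where 25.5% of all genes were called, 6 of the 10 were, with Lamtor5 (-1.08, edgeR adjusted p = 1.14e-05), Lamtor4 (-1.07, adjusted p = 3.67e-05), Lamtor2 (-0.83, adjusted p = 0.000672), Rheb (-0.80, adjusted p = 0.000503) and Lamtor3 (-0.58, adjusted p = 0.0407) lower in the hypothalamus and Rictor (0.78, adjusted p = 0.00833) higher. Of the 6 Balb/c libraries from the rest of the brain 3 were those low in Cd3e. Without them Balb/c alone had 2 of the 10 called (8.87% of all genes), Lamtor4 (-1.09, edgeR adjusted p = 0.00980) and Lamtor5 (-0.72, adjusted p = 0.00711), and Lamtor2 (-0.47, adjusted p = 0.183), Rheb (-0.53, adjusted p = 0.113) and Rictor (0.92, adjusted p = 0.0769) were not. Within C57Bl/6J alone edgeR called 0 of the 10 and 1 of all 11489 genes tested, so the count there is no result about these genes. Scaled to library totals, 0 of the 10 were called over both strains (Lamtor5 -0.36, edgeR adjusted p = 0.0787), and the calls over all genes went from 727 higher and 1437 lower to 854 and 1218. With the offset for transcript length the value of Lamtor2 was positive, and limma on log2(TPM + 1) called 0 of the 10. Among all genes tested, the median log2 fold change was -0.32 for transcripts under 1500 bases, 0.08 for 1500 to 4000 bases and -0.21 over 4000 bases. Without the 3 Balb/c HFHS libraries low in Cd3e, 0 of the 10 were called (4.71% of all genes), with -0.20 for Lamtor2 (edgeR adjusted p = 0.512), -0.19 for Lamtor5 (adjusted p = 0.640) and -0.21 for Rheb (adjusted p = 0.517). With the pool as a replicate block, over the pools present in both tissues, 0 were called as well (Lamtor2 -0.40, edgeR adjusted p = 0.218; Lamtor5 -0.58, adjusted p = 0.128; Rheb -0.55, adjusted p = 0.0816), and 33 of 13070 genes. Leaving out 1 library ended the call of Lamtor2 in 13 of 29 fits, of Lamtor5 in 18 and of Rheb in 20. The number called ranged from 0, as without the C57Bl/6J SD pool 11_15 of the rest of the brain, to 5, without the C57Bl/6J HFHS pool 33_37 of the rest of the brain. Of the 7 microglial markers tested, 5 were lower in the hypothalamus, as were 2 of 2 neuronal markers, and their part in these values was not tested.

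In Tregs, 0 of the 10 genes were called between the tissues by edgeR, where 4.93% of all genes were, with 1 of the 10 at an unadjusted p under 0.05. DESeq2 called 1 of them and 1198 of the 12607 genes, and limma-voom 6 and 4728. On simulated data this fit made more false than true calls in this comparison, and with the pool as a replicate block edgeR called 0 of all genes, so its calls are given as values only. Mlst8 was at or under 3 counts in 13 of 16 hypothalamic and 7 of 14 other libraries and had a log2 fold change of -5.68 (SE 2.21, edgeR adjusted p = 0.158). Mtor was at or under 3 counts in 12 of 16 hypothalamic and 3 of 14 other libraries. Without the 4 libraries of low Foxp3 it had a log2 fold change of -7.73 (edgeR adjusted p = 0.0151), a size that depends on the prior count of the fit. The median over the 10 genes was -0.37, beside -0.61 over all genes.

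The HFHS diet left no called change among the 10 genes in the second experiment. The 4 comparisons with SD (activated Tconv of the hypothalamus, those of the rest of the brain, and Tregs in the same order) tested 10, 10, 7 and 10 of the genes, and edgeR called 0 of them and 0% of all genes in each. Without the 4 libraries of low Foxp3, 0 of 9 were called in hypothalamic Tregs, and without the 3 libraries low in Cd3e 0 of 10 in activated Tconv of the rest of the brain. Unadjusted p-values under 0.05 were found for 406, 591, 214 and 853 of all genes by edgeR and for 0, 0, 0 and 2 of the members, while DESeq2 called 0, 0, 0 and 1 of the members and 16, 12, 180 and 327 of all genes, and limma-voom 0 of the members and 0, 1, 4 and 16 of all genes. In activated Tconv the hypothalamic median over the 10 genes was 0.01, beside -0.01 over all genes, and that of the rest of the brain was 0.03, beside -0.03.

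For the better measured genes of activated Tconv the errors were small enough to bound the change. Hypothalamic Rictor had 101, 160 and 313 CPM under HFHS diet and 112, 160 and 249 CPM under SD (lowest, median and highest, n = 8 each), with a log2 fold change of 0.07 (SE 0.22). Hypothalamic Lamtor4 had 77.6, 95.6 and 150 CPM under HFHS diet and 56.7, 89.4 and 117 CPM under SD. These ranges overlapped, and its log2 fold change of 0.33 (SE 0.19) was the largest increase among the 10 there, beside a larger negative value for Rptor with a wide error (-0.92, SE 0.93). Hypothalamic Mtor had 0, 11.5 and 39.0 CPM under HFHS diet and 0.201, 10.7 and 44.2 CPM under SD, and with a log2 fold change of -0.00086 and an SE of 1.21 it could not be bounded within 2-fold.

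**Figure D4:**
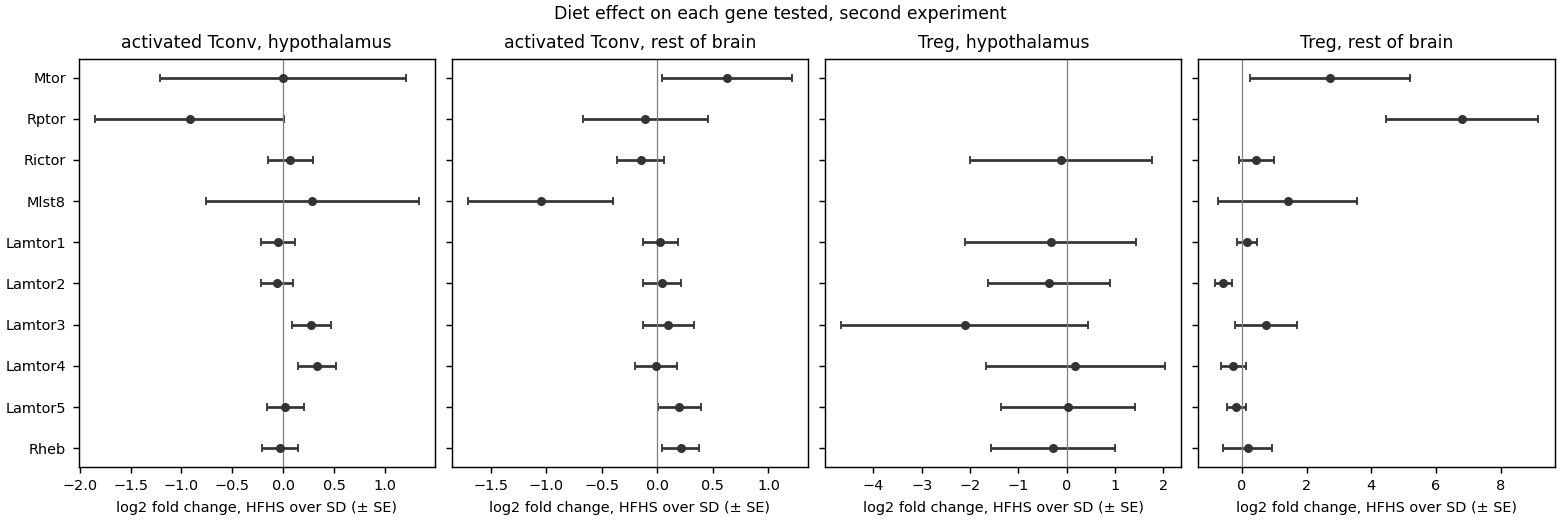
Log2 fold change of HFHS diet over SD for each gene, with SE from edgeR, in the 4 combinations of cell type and tissue. In activated Tconv the Ragulator genes, Rheb and Rictor lie between -0.15 and 0.33, and in Tregs the errors of Mtor, Rptor and Mlst8 span several log2 units.

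Tregs of the rest of the brain held the single value that another tool called. Rptor had 0 counts in all 4 C57Bl/6J SD libraries and 0.559 and 2.74 CPM in the 2 Balb/c SD libraries. Under HFHS diet it had 0.368, 1.43, 13.7 and 27.0 CPM in C57Bl/6J and 0.957, 4.55, 16.3 and 56.6 CPM in Balb/c. The diets overlapped, as 5 of the 8 HFHS libraries lay above the highest SD library, and the log2 fold change was 6.81 (SE 2.36, edgeR adjusted p = 0.494). DESeq2 gave 6.90 with an adjusted p of 0.000462. As Rptor was at or under 3 counts in 4 of the 6 SD libraries, the size of these fold changes rests on few counts. The DESeq2 call therefore adds little to the values above.

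Mtor in the same cells had 0, 0, 0.0581 and 0.720 CPM in C57Bl/6J under SD and 1.96, 8.20, 8.77 and 46.99 CPM under HFHS diet. In Balb/c it had 36.6 and 64.2 CPM under SD and 7.31, 9.11, 16.7 and 47.9 CPM under HFHS diet. All HFHS libraries of C57Bl/6J lay above all SD libraries of that strain, whereas in Balb/c the ranges overlapped. The share of all genes that separate in this way is not given here. The C57Bl/6J SD libraries of these cells correlated with each other at r of 0.608 to 0.730 and the HFHS libraries at 0.791 to 0.859. The part of detection in the values of Mtor and Rptor was not tested. The diet change over both strains was 2.72 (SE 2.46, edgeR adjusted p = 1), and the interaction of strain and diet was -7.60 (SE 2.71, edgeR adjusted p = 0.840). For Rptor the interaction was -6.96 (SE 2.75, edgeR adjusted p = 0.880). Lamtor2 had a diet change of -0.57 (SE 0.27, edgeR adjusted p = 0.676) and was, with Rptor, one of the 2 members counted above before adjustment.

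The interaction of strain and diet was also tested in the other cells. It called 0 of 10 genes in hypothalamic activated Tconv (0% of all genes), 0 of 7 in hypothalamic Tregs (0%) and 0 of 10 in Tregs of the rest of the brain (0%), where 493, 1296 and 661 of all genes had an unadjusted p under 0.05 by edgeR. The interaction of tissue and diet called 0 of the 10 in activated Tconv (0% of all genes, with 807 at an unadjusted p under 0.05 by edgeR) and 0 of the 10 in Tregs (5.45% of all genes).

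The genes around these complexes were read from lists of 57 genes, covering other complex subunits, the Rag GTPases, amino acid sensing, PI3K and Akt input, amino acid transport and effectors. Between strains in activated Tconv of the rest of the brain, 2 of 56 tested were higher in Balb/c and 6 lower by edgeR, where 12.1% and 11.3% of all genes were, with a median log2 fold change of -0.64 over the 56 and -0.03 over all genes. The smallest adjusted p-values were those of the glutamine transporter Slc1a5 (-2.31, edgeR adjusted p = 1.46e-05) and Slc3a2, the heavy chain of the leucine transporter (-0.93, adjusted p = 0.000376). Sgk1, a kinase activated by complex 2, was higher (0.83, edgeR adjusted p = 0.00356), and the kinase Akt2 (-1.30, adjusted p = 0.00592) was lower. Without the 3 libraries low in Cd3e, where 7.09% of all genes were called, 2 of 54 were, both lower: Slc1a5 (-1.76, edgeR adjusted p = 0.00151) and Slc3a2 (-0.78, adjusted p = 0.0131). Sgk1 (0.64, adjusted p = 0.104) and Akt2 (-1.05, adjusted p = 0.171) were not called. In hypothalamic activated Tconv Slc1a5 was the 1 of 54 called between strains (-1.27, edgeR adjusted p = 0.000346), where 2.10% of all genes were called.

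Between tissues in activated Tconv, 6 of 56 were higher and 1 lower in the hypothalamus by edgeR, where 16.9% of all genes were called. Among them were the PI3K subunit Pik3cd (0.77, adjusted p = 0.00132), Slc3a2 (0.46, adjusted p = 0.00473), the folliculin gene Flcn (1.08, adjusted p = 0.0152) and the lysosomal transcription factor Tfeb (1.57, adjusted p = 0.0353). Without the libraries low in Cd3e 1 of 56 was called (4.71% of all genes), Pik3cd (0.76, edgeR adjusted p = 0.0111), and the values were 0.26 for Slc3a2, 0.77 for Flcn and 1.35 for Tfeb.

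Between Tregs and activated Tconv of the hypothalamus 4 of 54 were called, where 7.73% of all genes were, all lower in Tregs, among them the leucine sensor Sesn2 (-7.62), Castor2 (-5.04) and the complex 1 inhibitor Akt1s1 (-6.44). Without the 4 libraries of low Foxp3 8 of 56 were called, all lower, with -7.63 for Sesn2, -6.79 for Castor2 and -10.02 for Akt1s1, while the calls over all genes went from 872 to 1743. Folds of this size in Treg libraries of few genes depend on the prior count of the fit. In the rest of the brain 3 of 56 were called, where 15% of all genes were, with Prr5l, a complex 2 subunit, lower in Tregs (-8.98, edgeR adjusted p = 2.99e-06) and Sesn1 (1.69, adjusted p = 5.20e-05) and Flcn (1.87, adjusted p = 0.00133) higher. These 3 were also called without the libraries low in Cd3e, with -9.65 for Prr5l, 1.53 for Sesn1 and 1.53 for Flcn, in a fit that leaves out no Treg library. A fold as large as that of Prr5l depends on the prior count of the fit as well. Between tissues in Tregs, under the same limit as above, Sesn2 had a log2 fold change of -5.57 (edgeR adjusted p = 0.0230) and Akt1s1 one of -7.54 (adjusted p = 0.0421), of 56 tested, where 4.93% of all genes were called. Without the low-Foxp3 libraries they were -4.70 (edgeR adjusted p = 0.0450) and -10.53 (adjusted p = 0.00568). The 4 diet comparisons and the strain comparisons in Tregs called 0 genes of these lists by edgeR.

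Over the 29 activated Tconv libraries, the genes that differed between strains were correlated. Pearson's r was 0.872 for Lamtor2 with Lamtor5, 0.851 for Lamtor5 with Rheb, 0.817 for Lamtor2 with Rheb and 0.754 for Lamtor4 with Lamtor5. Lamtor1 and Lamtor3, which did not differ between strains by the test, had lower values with the other Ragulator genes and Rheb, 0.380 to 0.510 for Lamtor1 and 0.440 to 0.640 for Lamtor3, and 0.253 with each other. Rictor ran opposite to Lamtor5 (-0.606) and to Lamtor2 (-0.598), and Mtor with Rptor gave -0.121. These libraries share strain, tissue and depth differences, so the values are descriptions.

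Over all 59 libraries and among 14776 genes, the genes with a pattern of log2(CPM + 1) most like Mtor were Eaf1 (r = 0.775), Hivep2 (0.756), Xpr1 (0.721), Mgst3 (0.719) and Cbwd1 (0.719). The pattern most like the mean of Lamtor1 to Lamtor5 was that of the mitochondrial ribosomal gene Mrpl30 (0.867), followed by 1 transcript that matched no gene symbol (0.849), Cklf (0.832), Pole4 (0.824) and Tax1bp1 (0.817). In these 59 libraries the number of detected genes differed between the cell types, which all the correlated genes share.

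In the pilot, each condition was 1 library, so no difference has a replicate check and the intervals cover counting error only (exact Clopper-Pearson, 95%). The 8 libraries held 99925 to 5334511 read counts on genes. Fold changes are of normalized reads, and a gene counted as past the limits with over 20 normalized reads in 1 library of the pair and a fold above 2 or under 0.5. In CD44low+int T cells 3 of the 10 genes were higher and 1 lower under HFHS diet, where 24.8% of all genes were higher and 37% lower. Lamtor4 had 198 counts under HFHS diet and 65 under SD, a 5.19-fold higher level (3.90 to 6.98). Lamtor2, with 894 and 543 counts, was 2.81-fold (2.52 to 3.13) and Lamtor5, with 438 and 318 counts, 2.35-fold higher (2.03 to 2.72). Lamtor1 had 9 and 78 counts and a fold of 0.197, and Rictor, with 999 and 1293 counts, one of 1.32 (1.21 to 1.43). Mtor had 20 counts against 3, a ratio of 11.4 (3.37 to 59.7) under the read limit, and Lamtor3 33 against 36, a ratio of 1.56 (0.944 to 2.58). The SD library of these cells held 241 counts of Foxp3 and the HFHS library 3.

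In pilot Tregs 4 genes were higher and 3 lower under HFHS diet, beside 48.2% and 32.3% of all genes. Mtor had 127 counts against 2, a ratio of 52.9 (14.3 to 441), and Rheb 374 against 10, a ratio of 31.1 (16.7 to 65.5). Lamtor4 had 97 counts against 0, at least 26.9-fold higher against a floor of 3 counts per library, and Lamtor5 was 4.84-fold higher (3.40 to 7.06). Rictor had 566 counts against 1157, a fold of 0.407 (0.368 to 0.451), Rptor 12 against 41, a fold of 0.244, and Lamtor1 10 against 47, a fold of 0.177. Lamtor2, with 473 and 418 counts, had a fold of 0.942 (0.824 to 1.08). Most genes of all kinds were past the limits in this pair.

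Between ob/ob and WT mice the WT libraries set limits. The WT CD25- library held 220336 counts on genes, with 66 of Foxp3 and 175 of the Treg gene Ikzf2, where the ob/ob CD25- library held 48 and 339 in 1727379. The part of Tregs in the values of this pair was not tested. The ob/ob CD25++ library held 99925 counts, and the WT CD25++ library had 0 counts of Cd4 and 99908 of the microglial gene P2ry12, against its label. In CD25- cells 5 of the 10 genes were higher and 2 lower in ob/ob mice, where 57.3% of all genes were higher and 28.5% lower. Rictor had 615 counts against 8, a fold of 9.86 (4.97 to 22.9), and Mtor 105 against 0, at least 4.49-fold higher. Lamtor4 was at least 8.04-fold, Rptor at least 2.48-fold and Lamtor2 2.28-fold higher, and Lamtor5 (0.330) and Rheb (0.211) were lower. With size factors over these 2 libraries, or with TMM, the folds were 18.9 or 17.9 for Rictor, 4.37 or 4.14 for Lamtor2, 0.404 or 0.383 for Rheb and 0.633 or 0.599 for Lamtor5, which was then not past the limit, and 1 gene was lower. In the CD25++ pair 2 were higher and 4 lower, beside 24.8% and 54.8% of all genes. The libraries were those named above, so that the ratio of Mtor (30 counts against 0, at least 156-fold higher) compares a library of few reads with one that carried no Cd4. Lamtor4 had a fold of 5.36 (24 against 70 counts) and Rictor, with 1 count against 50, one of 0.312 (0.00776 to 1.82), an interval that includes no change. Lamtor5 had a fold of 0.322, Lamtor2 one of 1.17, Mlst8 was at least 3.82-fold lower and Rheb at least 15.1-fold lower. In CPM in place of size factors 4 of the 10 were higher and 1 lower, beside 2099 higher and 1634 lower of 5261 genes, and the folds were 18.3 for Lamtor4, 4.01 for Lamtor2, 1.07 for Rictor and 1.10 for Lamtor5.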

How the data were processed

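RNA from sorted mouse T cells was sequenced in 67 libraries. For the pilot, the authors deposited raw read counts per gene symbol (SMARTer low-input and Nextera libraries, BWA-mem, HTSeq, mm10). For the second experiment, the authors deposited Salmon's estimated counts, TPM values and other columns with transcript and effective lengths per RefSeq name (SMARTer mRNA libraries, nf-core/rnaseq pipeline with default settings, mm10). Versions of BWA, HTSeq and Salmon, and whether strand was used in counting, are not given in the sources used here. The 10 members and all lists were chosen with earlier results of these data known.

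Estimated counts were rounded and summed per gene, after 34652 of 35034 names (98.9%) matched a symbol in RefSeq (GRCm38.p6). CPM used the total of all genes. Effects were tested with edgeR 4.0.16 (quasi-likelihood, TMM, genes kept with over 10 counts in at least n libraries, n being the size of the smallest group, Benjamini-Hochberg over all genes tested, threshold 0.05), with strain and diet as covariates where they were not the factor tested. The p-values in the text come from this fit unless DESeq2 1.42.0 or limma 3.58.1 is named (R 4.3.3). Pools were the replicates, and p-values measure the spread between them. Same-numbered pools of different cells did not deviate together and were not treated as pairs. The pilot was scaled by size factors over 786 genes and was not tested. The fit was tested on simulated data with known changes. It recovered few of the 4-fold ones in the diet and strain comparisons of Tregs, between tissues in Tregs (5%) and in hypothalamic Tregs against activated Tconv (4%). For Tregs against activated Tconv of the rest of the brain it recovered 26.5%. A count of 0 or an uncalled gene in these comparisons bounds little. The fit made more false than true calls between tissues in Tregs. Members were named in every comparison, and from the pathway lists up to 5 genes with the smallest adjusted p. Some genes of these lists are counted but not reported here by name. The genes most like Mtor or Ragulator were the 5 with the highest Pearson r.
Alternatives were DESeq2, limma-voom, other count filters, each strain alone, each library left out and pools as a block. Chosen after the data were seen were each diet alone, offsets for length, limma on log2(TPM + 1), library totals in place of TMM, the low-Foxp3 and low-Cd3e libraries left out (the latter also within Balb/c alone), and the interaction of tissue and strain.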

Additional observations from a re-analysis of the deposited data

Results flagged for a closer look

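In groups of 4 libraries or more, 21 of 116 combinations of a member and a group held 1 library far from the others by Dixon's criterion. The chance rate of about 1 in 20 holds for normally distributed values. A group with 0 CPM in all but 1 library is flagged at any level of that library, as with Rptor at 0.0567 CPM. The count of 21 can therefore not be set against that rate. No cause was tested for any of these libraries.

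Of these, 16 were Treg libraries. In hypothalamic Tregs, Mtor stood out at 21.6 CPM in the Balb/c HFHS pool 15_21, at 15.2 CPM in the C57Bl/6J SD pool 11_15 and at 0.515 CPM in the C57Bl/6J HFHS pool 06_10, the last 2 being low in Foxp3. Rptor did so at 13.3 CPM in the Balb/c HFHS pool 16_20, at 0.0662 CPM in the Balb/c SD pool 42_46 and at 0.0567 CPM in the C57Bl/6J HFHS pool 77_80. Rictor was at 316 CPM in the Balb/c SD pool 37_41 and at 0 CPM in the other 3. Mlst8 was at 3.09 CPM in the C57Bl/6J SD pool 11_15. Lamtor1 was at 215 CPM in the C57Bl/6J SD pool 43_47, also low in Foxp3, and Lamtor3 at 204 CPM in the Balb/c SD pool 42_46 and at 43.8 CPM in the C57Bl/6J HFHS pool 72_76.

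In Tregs of the rest of the brain, Mtor was at 46.99 CPM in the C57Bl/6J HFHS pool 21_25 and at 0.720 CPM in the C57Bl/6J SD pool 01_05. Mlst8 was at 0 CPM in the C57Bl/6J HFHS pool 77_80, beside 45.6 to 52.2 CPM in the other 3, and at 35.6 CPM in the C57Bl/6J SD pool 62_66, beside 0 CPM in the others. Rictor was at 224 CPM in the Balb/c HFHS pool 26_31.

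In activated Tconv of the hypothalamus, the C57Bl/6J HFHS pool 06_10 stood out with Lamtor3 at 91.4 CPM and Lamtor5 at 130 CPM, the Balb/c HFHS pool 15_21 with Lamtor5 at 174 CPM and the C57Bl/6J HFHS pool 72_76 with Rptor at 13.6 CPM. In the rest of the brain the C57Bl/6J SD pool 62_66 had Lamtor5 at 168 CPM.

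The strain difference of activated Tconv differed between tissues for Lamtor2 (by 0.77), Lamtor4 (by 1.07) and Lamtor5 (by 1.12 on the log2 scale, edgeR interaction test), being larger in the rest of the brain. None of the 3 was called without the 3 Balb/c HFHS libraries low in Cd3e.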

How the results depend on the processing

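Of 4600 values recomputed under other settings, 4227 kept their side of the threshold with no change of sign larger than 1 SE, or as counts stayed within 1.5 times. For the 10 genes, 3497 log2 fold changes did so, 86 lost a call, 56 gained one, 77 uncalled values changed sign by more than their SE and 9 reversed with a call in the report or under the other setting. Where a value below differs from the report, the cause was not tested, and the settings that use fewer libraries test with fewer samples.

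The number of members called changed as follows. In Tregs against activated Tconv of the hypothalamus (1 in the report), limma-voom called 6 (7330 of 11285 genes), log2(TPM + 1) 6 (5945), a replicate block by pool 3 (5638 of 11685) and the offset for transcript length 5, all higher, where the split of all calls went from 61 higher and 811 lower to 4163 and 628. In the rest of the brain (0), limma-voom called 1 (3490 of 13961 genes), Balb/c alone 5 and the length offset 3 (3162). Between tissues in activated Tconv (3), Balb/c alone gave 6, C57Bl/6J alone 0, the replicate block 0, the same paired pools with no replicate block 1, the length offset 1, TPM 0, library totals 0 and leaving out the low-Cd3e libraries 0. Between tissues in Tregs (0), DESeq2 gave 1 (1198 of 12607 genes), limma-voom 6 (4728), TPM 1 (1772), the length offset 1, Balb/c alone 1 and leaving out the low-Foxp3 libraries 1. Between strains in activated Tconv of the rest of the brain (5), SD alone and the length offset each gave 3, and the interaction of tissue and strain (3) gave 1 in TPM and 0 without the low-Cd3e libraries. The HFHS diet in Tregs of the rest of the brain (0) gave 1 with DESeq2 (327 of all genes). In the pilot, over 20 reads in both libraries gave 2 members for CD44low+int cells (4), 2 for Tregs (7), 4 for ob/ob CD25- cells (7) and 2 for ob/ob CD25++ cells (6), and over 100 reads in 1 library gave 2, 3, 4 and 4.

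Leaving out 1 library moved the members called from 1 to 2 for hypothalamic Tregs against activated Tconv (2 without the C57Bl/6J HFHS Treg pool 72_76), over 0 to 5 between tissues in activated Tconv, and over 0 to 1 between tissues in Tregs (1 without the hypothalamic C57Bl/6J SD Treg pool 11_15). The reversed values, all but 3 of them under the length offset, were 2.38 for Rictor, 2.09 for Lamtor1 and 1.88 for Lamtor5 (hypothalamic Tregs against activated Tconv), 0.61 for Lamtor1 and 0.63 for Lamtor2 (the same in the rest of the brain), 0.15 for Lamtor2 and, in C57Bl/6J alone, 0.091 for Lamtor5 (tissue, activated Tconv), -0.028 for Lamtor2 and, in TPM, -0.42 for Lamtor1 (strain, activated Tconv of the rest of the brain), and in the pilot a fold of 1.10 for Lamtor5 in ob/ob CD25++ cells in CPM. Same-numbered pools correlated from -0.04 to 0.14 over the 4 comparisons that shared numbers, so the pools were not taken as pairs.

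Over all genes, the calls ranged from 383 (C57Bl/6J alone) to 7330 (limma-voom) for hypothalamic Tregs against activated Tconv (872), from 381 (Balb/c alone without the low-Cd3e libraries) to 5269 in the rest of the brain (2097), from 1 (C57Bl/6J alone) to 6993 between tissues in activated Tconv (2164), from 0 to 4728 between tissues in Tregs (622), from 802 (SD alone) to 4434 (TPM) between strains in activated Tconv of the rest of the brain (2887), from 47 to 544 in the hypothalamus (228), and from 0 to 16, 12, 180 and 327 (DESeq2) in the 4 diet comparisons. Mtor, Rptor and Mlst8 were at or under 3 counts in most hypothalamic Treg libraries, and the part of depth in this was not tested.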
